A study of Mus musculus with 4 samples.

Results

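Transcripts of alarm and antimicrobial proteins were followed across the cell classes of mouse gingiva: S100a8, S100a9, Lcn2, Slpi, Saa3, Hmgb1 and Anxa1, 7 of the 31253 genes in the matrices, chosen by their symbols. Gingival cells had been captured for single-cell RNA sequencing in 4 libraries, 1 per group, so no difference below has a replicate check and no test across animals was possible. The 4 groups were Itga9-Lyz2-cKO mice with periodontitis (cKO_PD), Itga9-Lyz2-cHet mice with periodontitis (cHet_PD), Itga9-Lyz2-cKO controls (cKO_control) and Itga9-Lyz2-cHet controls (cHet_control). In the PD groups the maxillary second molar carried a silk thread and Porphyromonas gingivalis, a periodontal bacterium, and gingiva was collected after 14 days. Both genotype labels name Itga9, an integrin subunit, and Lyz2, a lysozyme gene active in macrophages, monocytes and neutrophils, so both controls also carry an engineered genotype. Strain, age, sex and the number of animals per library were not given. Of 22487 cells in the keratinocyte class, 1 cluster, led by BC037156 and Odam, held the largest share of keratinocyte S100a8 and S100a9 transcripts in all 4 libraries and of Lcn2 transcripts in both PD libraries.

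S100a8 and S100a9 are the subunits of calprotectin, a protein of neutrophil cytosol and of stressed epithelium that withholds zinc and manganese from microbes and can engage Tlr4 and the receptor coded by Ager. Lcn2 binds bacterial siderophores and so withholds iron, and Slpi inhibits neutrophil elastase and other serine proteases that neutrophils release. Saa3 is a locally made serum amyloid A of macrophages and connective tissue, Hmgb1 is a chromatin protein that acts as an alarm signal once it leaves the cell, and Anxa1 is a phospholipid-binding protein that restrains neutrophil entry through formyl peptide receptors. In the mouth these proteins come from neutrophils that cross the gum epithelium as well as from the epithelium itself, so the question put to the data was which cells held the transcripts.

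S100a8 and S100a9 lie side by side on chromosome 3, on opposite strands and with 22.6 kb between them, S100a8 at chr3:90668978-90670035 and S100a9 at chr3:90692632-90695721 (mm10, GENCODE M21). Lcn2 is at chr2:32384633-32388252 and Slpi at chr2:164354070-164389095, Saa3 at chr7:46711998-46715700, Hmgb1 at chr5:149046702-149184489 and Anxa1 at chr19:20373428-20390944, all on the minus strand, and each is annotated as a protein-coding gene. All 7 members matched a promoter entry in RefSeq (GRCm38.p6), and the 250 bases before the RefSeq start site are shown for S100a8, S100a9 and Lcn2, the calprotectin pair and the siderophore binder followed most closely below. The S100a8 window is chr3:90668821-90669070 on the plus strand, the S100a9 window chr3:90695722-90695971 on the minus strand and the Lcn2 window chr2:32387740-32387989 on the minus strand. RefSeq start sites can differ from the GENCODE gene ends. The Lcn2 window lies inside the GENCODE range of its gene, and the S100a8 window partly overlaps that of its gene. Capitals mark matches to TATAAA or to a C/EBP pattern, TTNNGNAA.
S100a8: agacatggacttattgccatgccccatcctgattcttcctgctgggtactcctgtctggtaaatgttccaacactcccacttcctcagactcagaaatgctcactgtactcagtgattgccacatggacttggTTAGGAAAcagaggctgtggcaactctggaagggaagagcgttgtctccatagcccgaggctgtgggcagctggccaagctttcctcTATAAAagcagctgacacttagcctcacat
S100a9: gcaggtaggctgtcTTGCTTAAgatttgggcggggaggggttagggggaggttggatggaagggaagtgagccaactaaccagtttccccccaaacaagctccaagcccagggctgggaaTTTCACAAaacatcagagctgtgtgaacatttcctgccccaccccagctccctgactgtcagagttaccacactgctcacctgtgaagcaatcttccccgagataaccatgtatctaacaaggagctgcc
Lcn2: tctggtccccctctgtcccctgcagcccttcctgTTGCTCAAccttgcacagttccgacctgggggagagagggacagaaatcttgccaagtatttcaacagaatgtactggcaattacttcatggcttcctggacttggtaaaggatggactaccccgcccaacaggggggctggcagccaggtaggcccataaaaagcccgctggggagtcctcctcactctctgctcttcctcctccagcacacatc

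Both strands were searched for these 2 patterns and for an NF-kB pattern, an AP-1 pattern, TGANTCA, and a STAT pattern, TTCNNNGAA. S100a8 held TATAAA 30 bases before its RefSeq start and 1 C/EBP match, S100a9 held 2 C/EBP matches and Lcn2 held 1. Slpi held 3 C/EBP matches, Saa3 held 4, Anxa1 held TATAAA and 1 C/EBP match, and neither of the 2 Hmgb1 windows held a match. The C/EBP pattern is short and was found in 36.8% of 32851 RefSeq promoter windows of the same length, TATAAA in 12.4%, the NF-kB pattern in 1.41%, the AP-1 pattern in 6.75% and the STAT pattern in 7.02%. The last 3 had no match in the members' windows, which says only that those letters are not there.

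The libraries held 6595 cells (cKO_PD), 8967 cells (cHet_PD), 7673 cells (cKO_control) and 7915 cells (cHet_control) after filtering. Median depth was 2509 and 2934 unique molecular identifiers (UMIs) per barcode in the PD libraries and 5076 and 5292 in the controls, and the lowest deposited total was 500 UMIs in both PD libraries and 1501 in both controls. Itga9 was 20.5 CPM in cKO_PD and 93.4 CPM in cHet_PD mononuclear phagocytes, and 47.9 CPM in cKO_control and 145 CPM in cHet_control, lower in the cKO library of each pair. The phagocytes were of different clusters, with 95 of 126 cKO_PD cells in the one led by Vcan and Fn1, 171 of 225 cHet_PD cells in the one led by Pdpn and Arg1, and 47 of 58 cKO_control and 34 of 43 cHet_control cells in the one led by Ccl8 and Selenop, so in PD genotype and cluster cannot be told apart in this Itga9 difference. Neutrophils held at most 1 Itga9 UMI per library, so the genotype could not be read there. Endothelial markers were high in endothelium (Pecam1 1905, 1981, 1616 and 1472 CPM) and Csf3r was 349 and 1660 CPM in PD neutrophils. Krt5 in endothelium (318, 360, 696 and 925 CPM) showed keratinocyte RNA in that class. Whether it was free RNA or came from doublets was not tested. Pairs of libraries shared between 65 and 116 cell barcodes. Levels below are CPM, a gene's UMIs scaled to 1e6 UMIs of its class and library, for classes of at least 40 cells. Brackets give exact 95% Poisson intervals, which cover counting error only and no difference between animals. A gene was called higher or lower by size where 2 libraries were at least 2-fold apart with 10 CPM added, 1 of them held at least 50 UMIs and the 95% interval of the ratio excluded 1.

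Endothelium served as the measure of free RNA, since endothelial cells share a suspension with neutrophils but are not known as a main source of calprotectin. S100a8 was 393 CPM (358 to 432) in cKO_PD endothelium, 193 CPM (176 to 211) in cHet_PD, 2.56 CPM (0.696 to 6.54) in cKO_control and 72.8 CPM (56.3 to 92.6) in cHet_control. Single cells weighed on these values. In cKO_PD 187 of 446 UMIs lay in 1 cell, and in cHet_control 63 of 66 did. A list of 12 neutrophil tracers (among them Retnlg, Cxcr2, Csf3r, Mmp8 and Ngp) summed to 265 CPM, 59.3 CPM, 7.67 CPM and 131 CPM in endothelium of cKO_PD, cHet_PD, cKO_control and cHet_control, with 2, 0, 7 and 1 of the 12 at 0. Without the cells that held a tracer UMI, endothelial S100a8 was 150 CPM in cKO_PD, 152 CPM in cHet_PD, 2.66 CPM in cKO_control and 1.19 CPM in cHet_control. The background was then nearly equal in both PD libraries and close to 0 in both controls. Lcn2 in the same endothelial cells was 24.4 CPM, 28.8 CPM, 17.3 CPM and 32.1 CPM, and showed no common direction with PD.

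Neutrophils and keratinocytes together held most S100a8, in shares that differed between the libraries. Of all S100a8 UMIs, 73.5% in cKO_PD, 28.8% in cHet_PD, 47.6% in cKO_control and 80.2% in cHet_control lay in neutrophils, and 16.9%, 64.3%, 42.9% and 9.07% lay in keratinocytes. Slpi was mainly epithelial, with 53.1%, 79.9%, 74.8% and 90.6% of its UMIs in keratinocytes. Lcn2 had a further source, the gland classes, which held 14.5% of its UMIs in cKO_PD, 0.487% in cHet_PD, 31.6% in cKO_control and 2.74% in cHet_control.

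In keratinocytes of all layers together, both calprotectin subunits were high in PD and low in controls. S100a8 was 1088 CPM (1070 to 1106) in cKO_PD and 1017 CPM (1005 to 1029) in cHet_PD, against 71.5 CPM (68.7 to 74.3) in cKO_control and 26.0 CPM (24.6 to 27.5) in cHet_control. S100a9 was 521 CPM and 496 CPM in the same PD libraries, against 32.4 CPM and 15.9 CPM in the controls. The PD values of both genes lay close together and far above both controls. S100a8 was 15.2-fold higher in cKO_PD than in cKO_control (14.6 to 15.9) and 39.2-fold higher in cHet_PD than in cHet_control (37.0 to 41.5).

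Lcn2 and Anxa1 were also higher in both PD libraries, and Slpi in cHet_PD. Lcn2 was 67 CPM in cKO_PD and 34.1 CPM in cHet_PD, against 4.02 CPM in cKO_control and 4.95 CPM in cHet_control. Slpi was 74.4 CPM, 189 CPM, 62.6 CPM and 45.8 CPM in that order, so that cHet_PD stood above the other 3. Anxa1 was 2846 CPM in cKO_PD and 4624 CPM in cHet_PD, against 826 CPM in cKO_control and 681 CPM in cHet_control, again higher in both PD libraries. Hmgb1 was close to level at 638 CPM, 514 CPM, 480 CPM and 447 CPM. Saa3 was all but absent from keratinocytes, with 1, 5, 0 and 0 UMIs. Lcn2 over all keratinocytes was not apart from endothelium in the PD libraries (75.8 CPM in cKO_PD, 36.6 CPM in cHet_PD). With the endothelial CPM taken off, its calls in both PD pairs were lost, at a log2 fold of 0.00 in each. The subtraction set levels below endothelium to 0, and Lcn2 became 0 in both libraries of each pair. The 0.00 was thus fixed by the subtraction and is not a measured fold. Without cells holding a neutrophil tracer Lcn2 was 68.7 CPM (64.0 to 73.7) in cKO_PD and 36.4 CPM (34.1 to 38.9) in cHet_PD keratinocytes, against 24.4 CPM (15.7 to 36.3) and 28.8 CPM (22.1 to 36.8) in endothelium. The intervals were then apart in cKO_PD, with keratinocytes higher, and overlapped in cHet_PD. In each control 8 of 10 keratinocyte clusters lay below endothelium for Lcn2, so endothelium is not a floor of free RNA for this gene. The calls lost after subtraction therefore do not show that keratinocyte Lcn2 was free RNA.

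For cKO_PD over cKO_control 4 of 7 members were called higher and 0 lower: S100a8, S100a9, Lcn2 and Anxa1. The background was 1.69% of 11970 genes called higher and 2.27% called lower, with a median log2 fold of -0.04 over all genes. For cHet_PD over cHet_control 5 were called higher, Slpi in addition, and 0 lower, where 3.97% of 12531 genes were called higher and 3.59% lower. Saa3 stayed under the count minimum in every pair. Between genotypes 1 member was called over all layers in each pair. Of 11010 genes 0.318% were called higher and 0.736% lower in cKO_PD over cHet_PD, and among the members 0 were called higher and Slpi, at a ratio of 0.394 (0.367 to 0.422), was called lower. In cKO_control over cHet_control S100a8 was called higher at 2.75-fold (2.57 to 2.95) and no member lower, with 0.153% of 12459 genes called higher and 0.193% lower. The members called in the PD pairs overlapped those of endothelium. In endothelium 4 members were called higher in cKO_PD over cKO_control, S100a8, S100a9, Lcn2 and Anxa1, where 5.16% of 5211 genes were called higher and 6.87% lower, and 3 in cHet_PD over cHet_control, S100a8, Slpi and Anxa1, where 8.56% of 6283 genes were called higher and 5.12% lower. No member was called lower there. A call over all keratinocytes thus does not by itself set them apart from endothelium, and the levels of single clusters are set against endothelium below.

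Without keratinocytes that held a neutrophil tracer, S100a8 was 59.3 CPM in cKO_control and 26.2 CPM in cHet_control. Its log2 fold with 10 CPM added was 0.93 in place of 1.18, just under the 2-fold needed for a call and in the same direction.

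The layers themselves differed between PD and control. The 4 clusters led by Ccdc71l and Serpinb2, Gjb2 and Sprr1b, H19 and Adamts1, and Il19 and Col17a1 held 1043 cells in cKO_PD and 3868 cells in cHet_PD but 16 cells in cKO_control and 43 cells in cHet_control, so the sums over all layers compare different cells. Restricted to the 6 clusters with at least 40 cells in every library, the same 4 and 5 members were called.

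**Figure D1:**
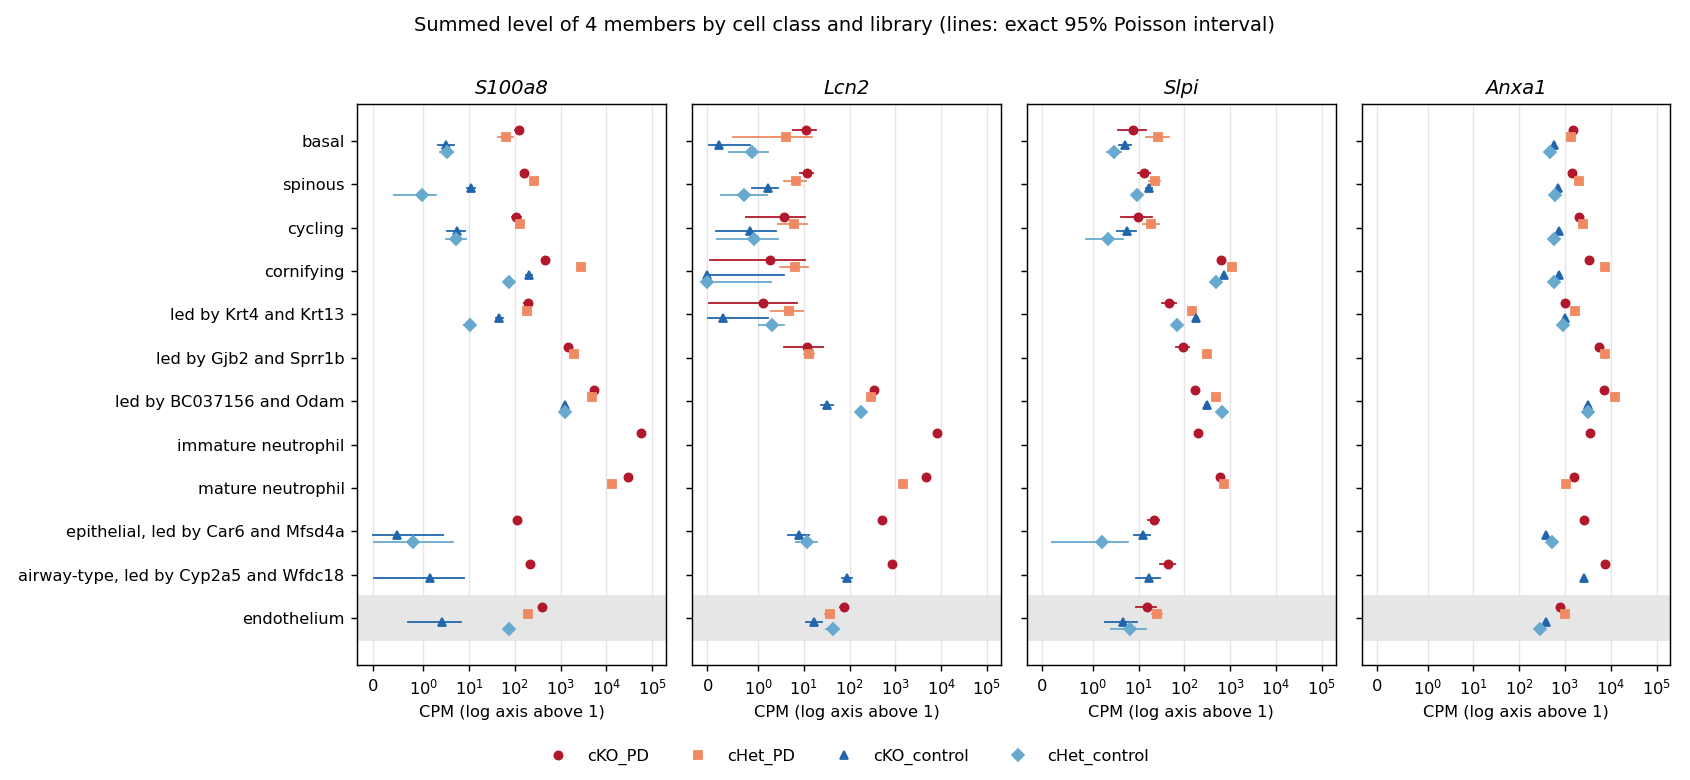
Summed level of S100a8, Lcn2, Slpi and Anxa1 in CPM (log axis above 1) in 11 cell classes and, shaded, in endothelium, with 1 point per library and lines for the exact 95% Poisson interval. The cluster led by BC037156 and Odam is the keratinocyte cluster with the highest S100a8 in all 4 libraries (5361, 4941, 1258 and 1243 CPM), and neutrophils lie above it.

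The cluster led by BC037156 and Odam carried most keratinocyte S100a8 in 3 of the 4 libraries. Odam codes for a protein known from the epithelium that attaches the gum to the tooth. The cluster made up 19.6% of keratinocytes in cKO_PD, 8.62% in cHet_PD, 3.37% in cKO_control and 1.23% in cHet_control (763, 514, 190 and 86 cells). It held 84.0% (exact 95% binomial interval 83.4 to 84.6), 39.9% (39.3 to 40.5), 76.3% (74.6 to 77.9) and 74.6% (72.1 to 77.0) of keratinocyte S100a8 UMIs. The members had been kept out of the genes used to cluster, so their level did not draw its border. In cHet_PD the cluster led by Gjb2 and Sprr1b, whose leading genes include stress keratins, held a further 31.1%, and the cornifying keratinocyte-like cluster 13.7%.

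S100a8 reached 5361 CPM (5265 to 5459) in the BC037156 and Odam cluster of cKO_PD and 4941 CPM (4850 to 5033) in cHet_PD, against 1258 CPM (1203 to 1314) in cKO_control and 1243 CPM (1165 to 1326) in cHet_control. S100a9 was 2682 CPM and 2473 CPM, against 656 CPM and 678 CPM. The PD libraries lay side by side and, on the summed levels, about 4-fold above the controls. S100a8 was 4.26-fold higher in cKO_PD than in cKO_control (4.06 to 4.47) and 3.97-fold higher in cHet_PD than in cHet_control (3.72 to 4.25). Within the cluster the difference was thus smaller than over all keratinocytes. The cHet_control levels of both genes came mostly from single cells, as given below. The likeness of the controls and the size of the cHet fold are therefore not firm, and the intervals do not cover this. The size of the cKO fold depended on the processing. Over 12 other settings its log2 fold ran from 0.98 to 2.34 for S100a8 and from 0.96 to 2.32 for S100a9. For Anxa1 it ran from 0.34 to 1.49. The lowest values were under the 2-fold needed for a call. Of 5888 genes 4.96% were called higher and 4.76% lower in cKO_PD over cKO_control, where 4 members were called higher. In cHet_PD over cHet_control 11% of 5536 genes were called higher and 5.89% lower, and 3 members, S100a8, S100a9 and Anxa1, were called higher. No member was called lower in either pair.

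S100a8 in this cluster was 25.6-fold higher than in all other keratinocytes in cKO_PD (24.4 to 26.8), 7.42-fold in cHet_PD (7.24 to 7.60), 71.0-fold in cKO_control (64.8 to 77.8) and 186-fold in cHet_control (163 to 212). The cluster was set apart in control gingiva too, at a lower level. The cHet_control fold rests mostly on a single cell, as given below, which its interval does not cover. Thinned to 1000 UMIs per cell, S100a8 was found in 49.0% of its cells in cKO_PD (45.0 to 53.0), 41.3% in cHet_PD (36.5 to 46.2), 14.2% in cKO_control (9.58 to 20.0) and 12.8% in cHet_control (6.56 to 21.7), against 8.46%, 9.03%, 0.405% and 1.41% of endothelial cells, with 136, 95, 0 and 0 cluster cells and 101, 212, 0 and 0 endothelial cells left out as too shallow. Without thinning the shares were 58.8%, 50.8%, 21.6% and 16.3% of cluster cells at median depths of 2284, 3783, 7108 and 8224 UMIs, and 14.4%, 18.4%, 1.21% and 2.11% of endothelial cells at 1825, 1882, 4585 and 4723 UMIs.

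**Figure D2:**
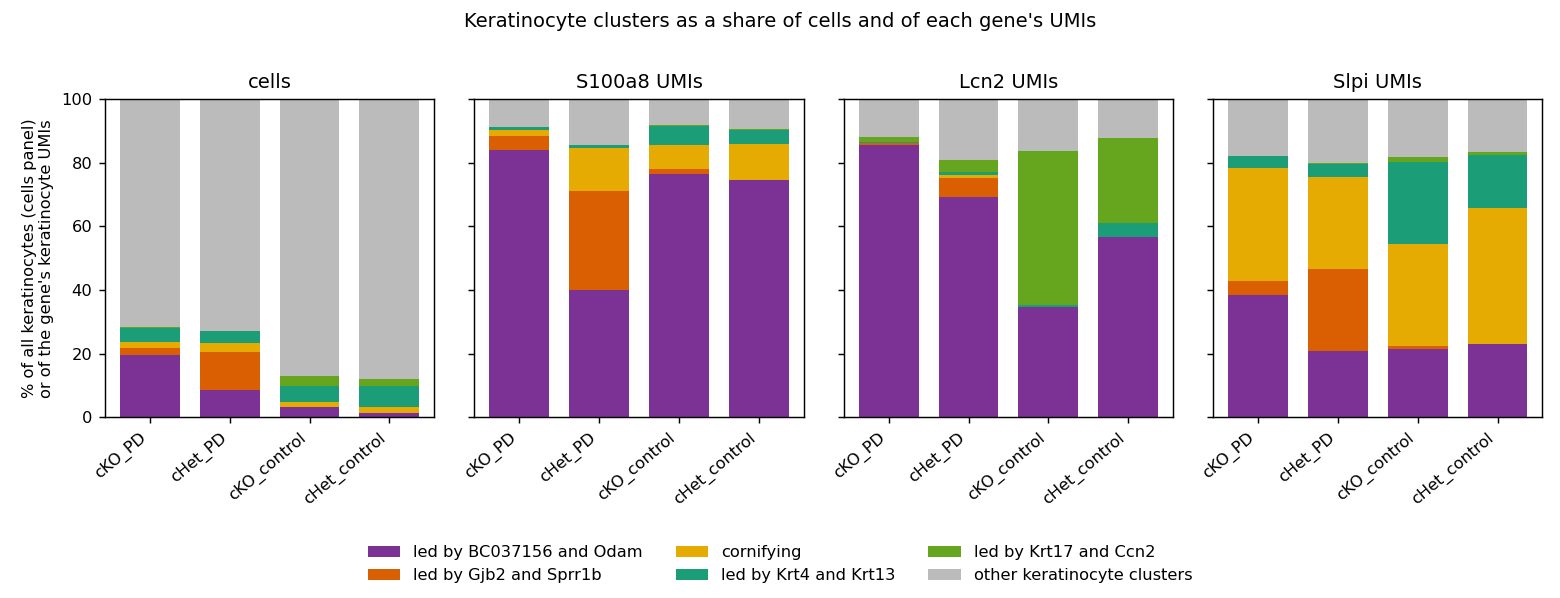
Share of keratinocytes (first panel) and of keratinocyte S100a8, Lcn2 and Slpi UMIs, in percent, held by 5 named clusters and by all others, in the 4 libraries. The cluster led by BC037156 and Odam is 19.6% of cKO_PD keratinocytes and holds 84.0% of their S100a8 UMIs, while Slpi is spread over several clusters.

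Single cells of the cluster were unequal. Cells with at least 10 S100a8 UMIs numbered 249 of 763 in cKO_PD, 118 of 514 in cHet_PD, 23 of 190 in cKO_control and 8 of 86 in cHet_control, and they held 94.4%, 95.9%, 97.4% and 97.6% of the cluster's S100a8 UMIs. In cHet_control 1 cell held 491 of 929 S100a8 UMIs, and the highest cell for S100a9 held 425 of 507, so the cHet_control levels of both genes rested on few cells. A cutoff in UMIs favours deep cells, and the control cells were the deeper ones, yet fewer of them passed it.

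Neutrophil tracers in the same cluster lay below endothelium in cKO_PD and cHet_control and above it in cHet_PD and cKO_control. The 12 tracers summed to 41.1 CPM in cKO_PD, 119 CPM in cHet_PD, 177 CPM in cKO_control and 1.34 CPM in cHet_control. In that order 1, 2, 9 and 11 of the 12 were at 0, and endothelium held 265 CPM, 59.3 CPM, 7.67 CPM and 131 CPM. In cHet_PD 232 of 271 tracer UMIs were Mmp9, 89 of them in 1 cell. In cKO_control 233 of 277 Mmp9 UMIs lay in 1 cell. Among the cells with at least 10 S100a8 UMIs, 21 of 249, 16 of 118, 4 of 23 and 0 of 8 held any tracer. S100a8 UMIs per tracer UMI were 130 in cKO_PD and 41.6 in cHet_PD, against 0.942 and 0.663 in neutrophils of the same libraries. Without tracer cells S100a8 in the cluster was 5477 CPM, 4712 CPM, 1071 CPM and 1261 CPM in cKO_PD, cHet_PD, cKO_control and cHet_control, in the same order as with them except that cHet_control passed cKO_control. S100a8 UMIs per S100a9 UMI also differed from neutrophils, at 2.0 (1.94 to 2.06) and 2.0 (1.93 to 2.06) in the cluster of cKO_PD and cHet_PD, against 1.48 (1.46 to 1.49) and 1.16 (1.14 to 1.20) in neutrophils. In endothelium the ratio was 1.68 (1.44 to 1.96) in cKO_PD and 1.77 (1.52 to 2.07) in cHet_PD. These intervals overlapped those of the cluster, so the ratio does not set the cluster apart from endothelium.

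**Figure D3:**
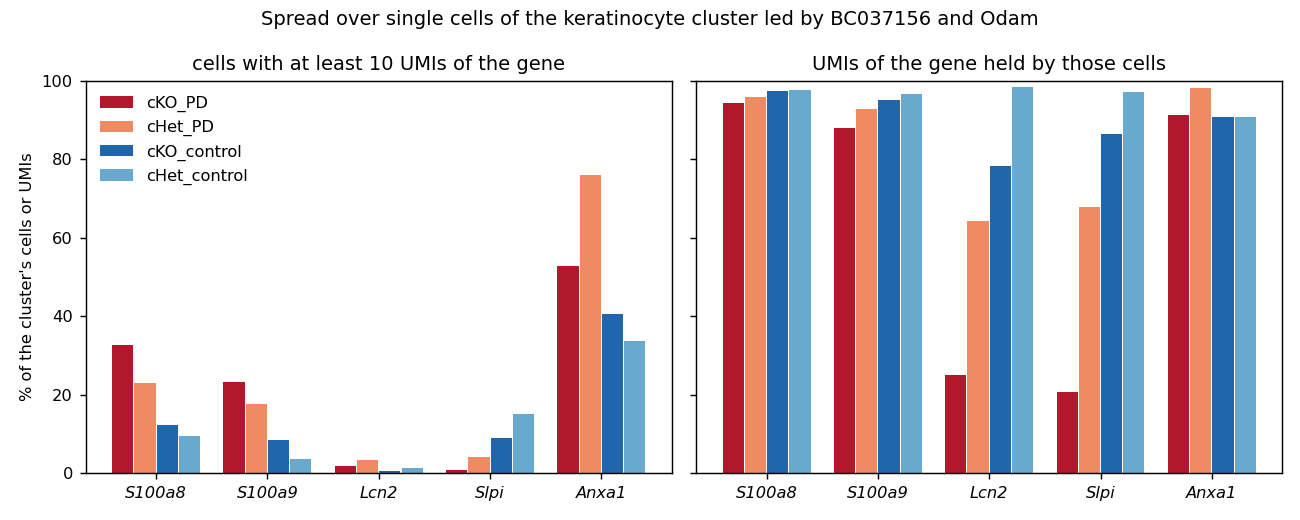
Share of cells of the BC037156 and Odam cluster with at least 10 UMIs of a gene (left, percent of cells) and share of that gene's UMIs in those cells (right, percent of UMIs), for 5 members and 4 libraries. For S100a8 32.6% of cKO_PD cells and 9.30% of cHet_control cells pass, and they hold over 94% of the UMIs in each library.

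Other layers were read against endothelium. The cornifying keratinocyte-like cluster, whose leading genes Lor and Flg code for proteins of the cornified surface, held S100a8 at 460 CPM (404 to 521) in cKO_PD, 2784 CPM (2697 to 2873) in cHet_PD, 201 CPM (174 to 231) in cKO_control and 72.3 CPM (60.8 to 85.3) in cHet_control. The value of cHet_PD stood far above the other 3, and in cHet_control 127 of 140 UMIs lay in 1 cell. S100a9 was 126 CPM, 1541 CPM, 5.00 CPM and 34.6 CPM. In cKO_PD over cHet_PD S100a8, S100a9 and Anxa1 were called lower in this cluster and no member higher, where 5.22% of 2986 genes were called lower and 1.64% higher. In cKO_PD over cKO_control S100a8, S100a9 and Anxa1 were called higher, and in cHet_PD over cHet_control Slpi as well, with none lower. Of 2422 genes 6.94% were called higher and 10.9% lower in the cKO pair, and of 4278 genes 8.79% higher and 16.4% lower in the cHet pair. Between the controls S100a8 was called higher and S100a9 lower in cKO_control (0.866% of 4043 genes higher, 3.56% lower). The cluster held 73 cells in cKO_PD and 174 cells in cHet_PD, and 27 of the 52 cHet_PD cells with at least 10 S100a8 UMIs also held a neutrophil tracer. Without tracer cells S100a8 there was 513 CPM in cKO_PD, 1796 CPM in cHet_PD, 183 CPM in cKO_control and 98.8 CPM in cHet_control. The difference between the PD libraries was thus smaller without tracer cells and in the same direction.

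The cluster led by Gjb2 and Sprr1b was found almost only in PD, with 91 cells in cKO_PD and 703 cells in cHet_PD. Its S100a8 was 1419 CPM (1309 to 1535) in cKO_PD and 1993 CPM (1951 to 2035) in cHet_PD, and its S100a9 568 CPM and 1034 CPM. Both were higher in cHet_PD by less than the 2-fold needed for a call. In the cluster led by Il19 and Col17a1 (212 cells in cKO_PD, 788 cells in cHet_PD) both were called lower in cKO_PD and no member higher, where 1.21% of 6449 genes were called lower and 0.543% higher. S100a8 was 121 CPM (97.5 to 149) in cKO_PD and 415 CPM (393 to 438) in cHet_PD, a ratio of 0.292 (0.233 to 0.362). S100a9 was 40.4 CPM and 109 CPM, a ratio of 0.372 (0.247 to 0.541). The cHet_PD level of S100a8 lay above endothelium, 2.15-fold (1.93 to 2.39), and the cKO_PD level below it. Without tracer cells S100a8 was 127 CPM in cKO_PD and 409 CPM in cHet_PD, not apart from endothelium in cKO_PD and above it in cHet_PD.

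Basal, spinous and cycling keratinocyte-like cells held little. Basal S100a8 was 120 CPM in cKO_PD and 63.5 CPM in cHet_PD, against 3.14 CPM in cKO_control and 3.24 CPM in cHet_control, and spinous S100a8 160 CPM and 257 CPM, against 11.1 CPM and 0.965 CPM. The basal values of PD lay below endothelium in both libraries, with and without tracer cells. In basal cells 3 members, S100a8, S100a9 and Anxa1, were called higher in cKO_PD over cKO_control (1.86% of 9272 genes higher, 2.36% lower) and 1, Anxa1, in cHet_PD over cHet_control (3.36% of 9828 higher, 3.28% lower). In spinous cells the same 3 were called higher in each pair (1.34% of 8626 genes higher and 2.82% lower in the cKO pair, 2.92% of 8634 higher and 3.43% lower in the cHet pair). In cycling cells 2, S100a8 and Anxa1, were called higher in the cKO pair (2.91% of 7222 higher, 4.18% lower) and the 3 in the cHet pair (6.95% of 7095 higher, 7.05% lower). No member was called lower in these layers. Spinous S100a8 lay below endothelium in cKO_PD (not apart without tracer cells, 160 CPM and 150 CPM) and above it in cHet_PD, 1.33-fold (1.18 to 1.51) with and 1.66-fold (1.44 to 1.91) without tracer cells. Of 10 keratinocyte clusters per library, 2 in cKO_PD, 5 in cHet_PD, 6 in cKO_control and 1 in cHet_control lay above endothelium for S100a8. With tracer cells left out on both sides these numbers were 3, 7, 5 and 2. For S100a8 7, 3, 0 and 8 of 10 clusters lay below endothelium in cKO_PD, cHet_PD, cKO_control and cHet_control, and for S100a9 8, 6, 0 and 9 did. With tracer cells left out these numbers were 3, 1, 0 and 0 for S100a8 and 6, 3, 0 and 0 for S100a9. For Lcn2 9 of 10 clusters in each PD library and 8 in each control lay below endothelium, and for Hmgb1 between 3 and 6 did. Endothelium is thus not an even floor of free RNA for any of these genes. S100a8 and S100a9 values at or below it cannot be told apart from background and are not read as expression. For Anxa1 all 10 clusters lay above endothelium in every library, and for Saa3 none did.

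Lcn2 followed the same cluster and had epithelial sources of its own. In the BC037156 and Odam cluster it was 336 CPM (313 to 362) in cKO_PD and 287 CPM (266 to 310) in cHet_PD, against 32.2 CPM (24.0 to 42.3) in cKO_control and 179 CPM (150 to 212) in cHet_control. The control values cannot be taken as levels of the cluster, since 1 cell held 40 of 51 UMIs in cKO_control and 1 cell held 132 of 134 in cHet_control. In the PD libraries 242 of 763 and 109 of 514 cells held it. Lcn2 was called higher in cKO_PD than in cKO_control, 10.5-fold (7.87 to 14.2), and not in cHet_PD over cHet_control. Lcn2 and Slpi were called lower in cKO_control than in cHet_control and no member higher, where 0.364% of 4667 genes were called lower and 0.729% higher. Every other keratinocyte cluster with at least 40 cells in a PD library lay below endothelium for Lcn2. Without tracer cells the cKO_PD clusters led by Ccdc71l and Serpinb2 and by Gjb2 and Sprr1b were not apart from it, at 0.855-fold (0.40 to 1.75) and 0.307-fold (0.0593 to 1.01). The cluster led by Krt17 and Ccn2 held too few cells in PD for a level, 14 Lcn2 UMIs of 18104 UMIs in 9 cells of cKO_PD and 36 of 40637 in 13 cells of cHet_PD. In controls it held Lcn2 at 50.4 CPM in cKO_control and 51.8 CPM in cHet_control (above endothelium in cKO_control, and in cHet_control not apart from it with tracer cells and above it without), 48.3% and 26.6% of keratinocyte Lcn2 UMIs.

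Among keratinocyte clusters Slpi was highest in the cornifying one of 3 libraries and in the BC037156 and Odam cluster of cHet_control. The cornifying keratinocyte-like cluster held 630 CPM (565 to 701) in cKO_PD, 1087 CPM (1033 to 1143) in cHet_PD, 732 CPM (680 to 787) in cKO_control and 485 CPM (454 to 517) in cHet_control. The BC037156 and Odam cluster held 168 CPM, 477 CPM, 311 CPM and 673 CPM, and there the PD value lay below the control in both genotypes without reaching the 2-fold. It held 38.5%, 20.7%, 21.5% and 22.9% of keratinocyte Slpi UMIs, and cornifying cells 35.6%, 28.9%, 32% and 42.8%. Basal Slpi was 7.54 CPM, 26.6 CPM, 5.11 CPM and 2.89 CPM, close to the endothelial 15 CPM, 25.5 CPM, 4.47 CPM and 6.62 CPM. In cKO_PD over cHet_PD the Slpi ratio was below 1 in all 10 keratinocyte clusters compared, and the protease inhibitor was called lower in 3 of them. Of these 10 clusters 5 in cKO_PD and 4 in cHet_PD were not apart from endothelium for Slpi. Endothelium had the same direction, at a log2 fold of -0.51 that was not called, as did neutrophils (below). The direction was thus not particular to keratinocytes, but it was not common to all classes. Mononuclear phagocytes had the opposite direction, with 185 Slpi UMIs of 438760 in cKO_PD and 287 of 1059711 in cHet_PD. So did fibroblasts, with 24 of 458055 and 49 of 1368026. The ratio was 0.352 (0.312 to 0.397) in the BC037156 and Odam cluster, 0.298 (0.212 to 0.407) in the Gjb2 and Sprr1b cluster, 0.312 (0.214 to 0.443) in the Krt4 and Krt13 cluster and, not called, 0.580 (0.514 to 0.652) in cornifying cells. Of all genes 1.51% of 5955 were called lower and 1.23% higher in the BC037156 and Odam cluster, 1.24% of 6362 lower and 0.519% higher in the Gjb2 and Sprr1b cluster, and 5.8% of 3550 lower and 0.817% higher in the Krt4 and Krt13 cluster. Slpi was the 1 member called lower in each, and no member was called higher.

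Slpi in the Krt4 and Krt13 cluster, named for keratins of the non-cornified mucosa, was 46.5 CPM in cKO_PD, 149 CPM in cHet_PD, 178 CPM in cKO_control and 68.8 CPM in cHet_control. It was called lower in cKO_PD than in cKO_control at a ratio of 0.262 (0.183 to 0.365) and higher in cHet_PD than in cHet_control at 2.17-fold (1.83 to 2.57). Here 6.94% of 5666 genes were called lower and 1.01% higher in the cKO pair, where S100a8 was the member called higher, and 2.79% of 7236 genes were called higher and 4.78% lower in the cHet pair, where S100a8, S100a9 and Slpi were called higher. Between the controls S100a8 and Slpi were called higher in cKO_control and none lower, with 0.29% of 7235 genes called higher and 0.194% lower.

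Anxa1 was found in every epithelial class. In the BC037156 and Odam cluster it was 7201 CPM (7089 to 7314) in cKO_PD and 12562 CPM (12417 to 12709) in cHet_PD, against 3110 CPM (3023 to 3198) in cKO_control and 3212 CPM (3085 to 3343) in cHet_control. Basal Anxa1 was 1477 CPM and 1382 CPM in cKO_PD and cHet_PD, against 580 CPM and 482 CPM in cKO_control and cHet_control, and was called higher in PD in both genotypes. Endothelium held 789 CPM and 1018 CPM, against 384 CPM and 289 CPM, so the PD difference of Anxa1 was also seen outside the epithelium. In cornifying cells Anxa1 was 3356 CPM in cKO_PD and 7532 CPM in cHet_PD, called lower in cKO_PD as given above.

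Among the classes ranked Hmgb1 was highest in cycling keratinocyte-like cells, and it differed little between PD and control. It was 1520 CPM, 1471 CPM, 1284 CPM and 1348 CPM in those cells of cKO_PD, cHet_PD, cKO_control and cHet_control. This was the first of the keratinocyte, gland, neutrophil, endothelial, fibroblast and mononuclear phagocyte classes in each library, and other classes were not ranked. In cornifying cells it was 152 CPM, 105 CPM, 97.1 CPM and 99.6 CPM. Basal Hmgb1 was 921 CPM and 894 CPM, against 567 CPM and 552 CPM, a difference of 1.63-fold (1.52 to 1.74) in the cKO pair and 1.62-fold (1.47 to 1.79) in the cHet pair that was not called. Hmgb1 has near-identical processed copies in the genome, and how the counting treated reads that fit several places is not given, so its level is uncertain. The transcript also does not tell whether the protein left the nucleus.

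**Figure D4:**
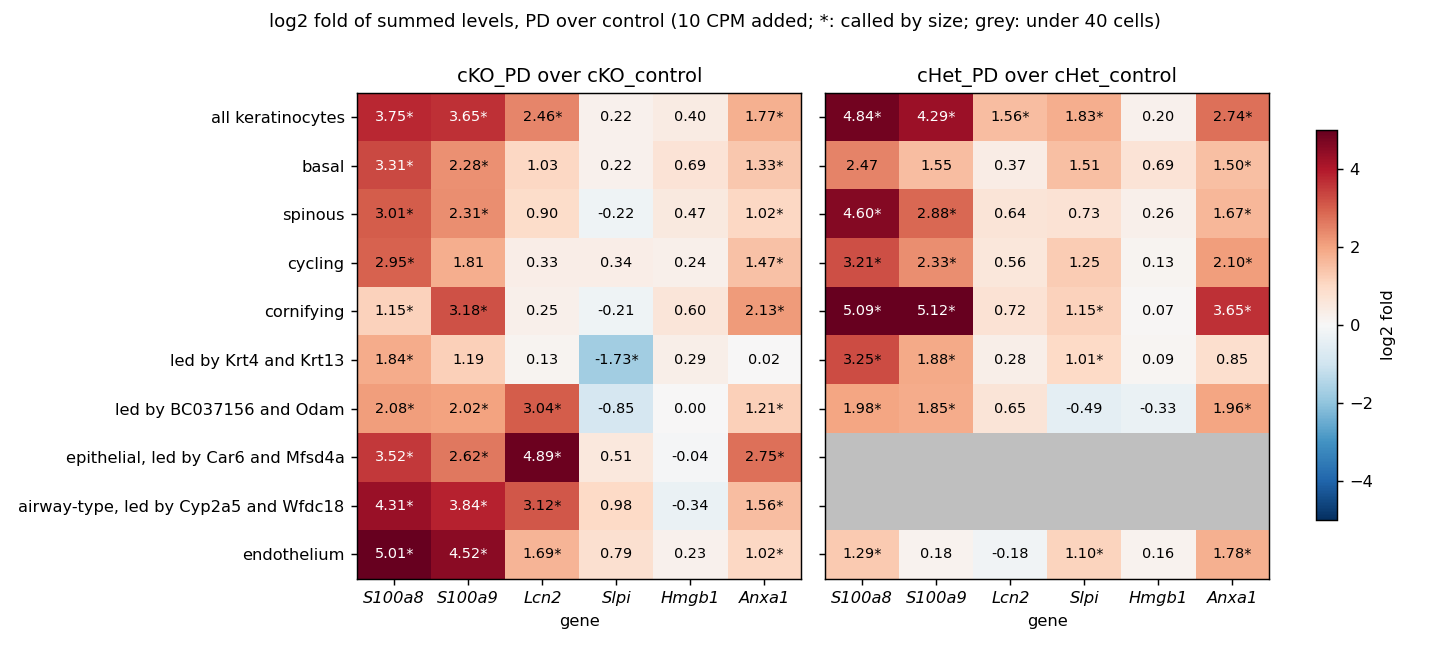
log2 fold of PD over control, with 10 CPM added, for 6 members in keratinocytes, 2 gland classes and endothelium, for the cKO pair (left) and the cHet pair (right); stars mark calls by size and grey marks classes under 40 cells. S100a8 is above 0 in every class shown, Slpi in the Krt4 and Krt13 cluster is -1.73 in the cKO pair and 1.01 in the cHet pair, and endothelial S100a8 is 5.01 and 1.29.

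Glands held Lcn2 and Anxa1 that differed with PD. The gland classes could be compared only between cKO_PD and cKO_control, since cHet_PD held 18 and 8 of their cells. In the class led by Car6 and Mfsd4a (485 cells in cKO_PD, 176 cells in cKO_control) Lcn2 was 518 CPM (490 to 548) in cKO_PD, against 7.79 CPM (4.45 to 12.7) in cKO_control, 66.5-fold higher (40.8 to 117). The same class of cHet_control held 11.9 CPM (6.66 to 19.6). Anxa1 was 2646 CPM in cKO_PD, against 385 CPM in cKO_control and 528 CPM in cHet_control. In the airway-type epithelium-like class led by Cyp2a5 and Wfdc18 (107 cells and 52 cells) Lcn2 was 851 CPM (782 to 923) in cKO_PD and 88.8 CPM (68.2 to 114) in cKO_control, 9.58-fold higher (7.38 to 12.6), and Anxa1 7554 CPM and 2550 CPM. Both Lcn2 levels stood far above the 75.8 CPM of cKO_PD endothelium.

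In each of the 2 gland classes 4 members were called higher and 0 lower, where 6.34% of 5867 and 9.97% of 2719 genes were called higher and 6.22% and 6.91% lower. S100a8 was among them, at 110 CPM against 0.487 CPM and at 217 CPM against 1.41 CPM, but both PD values were below the 393 CPM of endothelium. With tracer cells left out of endothelium its level was lower, as given above. The 110 CPM was still below that level and the 217 CPM above it, with tracer cells kept in the gland classes. The comparison with endothelium therefore does not settle S100a8 in the Cyp2a5 and Wfdc18 class. S100a9 in the Cyp2a5 and Wfdc18 class was at least 31.6-fold higher, with 0 UMIs in cKO_control and a floor of 3 counts. The neutrophil tracers summed to 79.9 CPM and 177 CPM in these classes of cKO_PD, against 4.38 CPM and 0 CPM in cKO_control. The gland cells captured differed between libraries: odorant-binding protein gland cells led by Obp1a and Mup4 numbered 541 in cKO_control, 1 in cHet_control and 0 in both PD libraries, and 9 gland tracers summed to 424 CPM in cKO_control endothelium and to at most 4.41 CPM in the other 3. These tracers summed to 83064 CPM in the Obp1a and Mup4 cells of cKO_control. In the Car6 and Mfsd4a class and the Cyp2a5 and Wfdc18 class of cKO_PD they summed to 3.31 CPM and 0 CPM. They therefore cannot show free RNA from those 2 classes.

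Neutrophils could be compared between the PD libraries only (735 cells in cKO_PD, 818 cells in cHet_PD), as the controls held 23 and 36. S100a8 was 49400 CPM (49008 to 49795) in cKO_PD and 14468 CPM (14217 to 14723) in cHet_PD, S100a9 33479 CPM and 12423 CPM, and Lcn2 7266 CPM and 2254 CPM. All 3 were called higher in cKO_PD, at 3.41-fold (3.35 to 3.48), 2.69-fold (2.64 to 2.75) and 3.22-fold (3.07 to 3.39), as were Hmgb1 at 2.35-fold (1.97 to 2.81) and Anxa1 at 2.52-fold (2.35 to 2.7). Slpi had the opposite direction, with 298 CPM (268 to 330) in cKO_PD and 828 CPM (769 to 890) in cHet_PD, a ratio of 0.36 (0.317 to 0.409). The 5 members called higher and 1 lower stand against 16.1% of 3579 genes called higher and 14.7% lower, with a median log2 fold of 0.23 over all genes, so this class differed in many genes at once.

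The libraries held different neutrophils. Immature neutrophil-like clusters made up 462 cells in cKO_PD and 16 in cHet_PD, and these held S100a8 at 55869 CPM, Lcn2 at 8115 CPM and Slpi at 202 CPM in cKO_PD. Clusters led by Ccrl2 and Il1rn and by Rsad2 and Ifit1 held 112 and 100 cells in cHet_PD and 12 and 0 in cKO_PD, with S100a8 at 6460 CPM and 8361 CPM and Slpi at 1259 CPM and 1320 CPM in cHet_PD. Among mature neutrophil-like cells alone (261 cells in cKO_PD, 590 cells in cHet_PD) S100a8 was 28998 CPM and 13373 CPM, 2.17-fold higher in cKO_PD (2.10 to 2.24), and Lcn2 4644 CPM and 1495 CPM, 3.11-fold higher (2.85 to 3.39). These 2 were the members called higher and none was called lower, where 3.77% of 1855 genes were called higher and 10.8% lower. Slpi, at 591 CPM and 713 CPM, and Hmgb1, at 149 CPM and 144 CPM, were not called. Even here the cells came from different clusters: 206 of the 261 cKO_PD cells lay in 1 mature cluster and 555 of the 590 cHet_PD cells in the other, so neutrophil state and genotype cannot be told apart. Keratin RNA differed as well, with 10 keratinocyte tracers summing to 2003 CPM in cKO_PD and 6666 CPM in cHet_PD neutrophils.

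**Figure D5:**
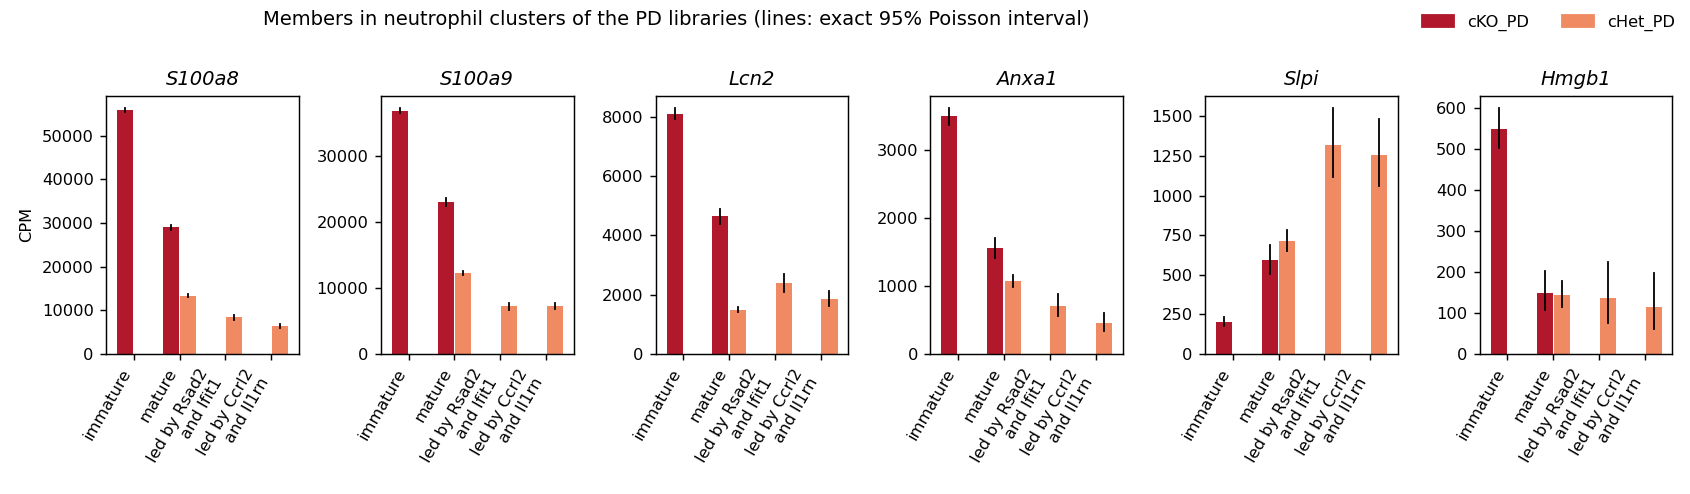
CPM of 6 members in 4 groups of neutrophil clusters of cKO_PD and cHet_PD, with lines for the exact 95% Poisson interval and no bar where a library held under 40 cells. S100a8, S100a9 and Lcn2 are highest in the immature cluster group of cKO_PD, and Slpi is highest in the 2 smaller clusters of cHet_PD.

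Saa3, the rarest member, was found in mononuclear phagocytes at 95.7 CPM (69.0 to 129) in cKO_PD and 51.9 CPM (39.1 to 67.6) in cHet_PD, on 42 and 55 UMIs, against 1 UMI in cKO_control and 0 in cHet_control. Fibroblasts held 34.9 CPM (20.0 to 56.7) in cKO_PD and 23.4 CPM (16 to 33) in cHet_PD, on 16 and 32 UMIs, against 1 UMI in cKO_control and 0 in cHet_control. The whole series held 89 and 113 Saa3 UMIs in cKO_PD and cHet_PD and 3 in each control, and keratinocytes 1 and 5 of them in PD. Neutrophils held 23 of the 89 UMIs in cKO_PD, 2 of 113 in cHet_PD and all 3 in cHet_control. Phagocytes also held S100a8 at 1493 CPM (1381 to 1612) in cKO_PD and 90.6 CPM (73.4 to 111) in cHet_PD, against 0 UMIs in cKO_control and 78.6 CPM (50.8 to 116) in cHet_control. Neutrophil tracers, some of which monocytes share, summed to 2639 CPM, 1810 CPM, 519 CPM and 761 CPM there, with 3, 5, 6 and 3 of the 12 at 0, and their part in the S100a8 values was not tested. As given above, most phagocytes of cKO_PD, of cHet_PD and of the controls came from 3 different clusters, so library and phagocyte cluster cannot be told apart in these values.

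Genes of the same pathways were counted in keratinocytes of all layers, in lists that leave out the 7 members. Of 13 measured inducers and transcription factors in the cKO pair 2 were called higher and none lower, and of 14 in the cHet pair 4 were called higher and none lower. Shares over all genes, for these and the following lists, are the 1.69% higher and 2.27% lower of the cKO pair and the 3.97% higher and 3.59% lower of the cHet pair given above. Cebpb, a C/EBP factor, was 220 CPM in cKO_PD and 284 CPM in cHet_PD, against 30.5 CPM in cKO_control and 37.3 CPM in cHet_control, 7.23-fold and 7.62-fold higher. Cebpb was also higher in endothelium, at 129 CPM in cKO_PD and 147 CPM in cHet_PD, against 19.2 CPM in cKO_control and 24.3 CPM in cHet_control. Zc3h12a, an RNase that limits inflammatory transcripts, was called higher in both pairs, and Osmr, the oncostatin M receptor, in the cHet pair.

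Among 19 and 21 measured alarm cytokines and nuclear alarmins 2 were called higher in the cKO pair and 4 in the cHet pair, with none lower. Il1rn, the interleukin 1 receptor antagonist, was 228 CPM in cKO_PD and 418 CPM in cHet_PD, against 69.4 CPM in cKO_control and 44.5 CPM in cHet_control. Il33 was called higher in the cHet pair, at 56.7 CPM against 5.61 CPM, and lower in cKO_PD (9.04 CPM) than in cHet_PD. Of the other S100 genes 0 of 10 measured were called higher and 1 lower in the cKO pair and 3 of 10 higher in the cHet pair, namely S100a10, S100a7a and S100a6. Of the antimicrobial list 2 of 18 were called higher and 1 lower in the cKO pair and 3 of 16 higher and 2 lower in the cHet pair; Defb1, a beta defensin, was 100 CPM in cKO_PD and 311 CPM in cHet_PD, against 37.7 CPM in cKO_control and 35.7 CPM in cHet_control. Of other annexins Anxa11 was called higher in both pairs.

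Of the receptors and binding partners in keratinocytes 0 of 8 measured were called higher and 1 lower in the cKO pair, and 1 of 11 higher and 1 lower in the cHet pair. Bsg, a surface partner of S100A9, was the one called lower in both, at 93.6 CPM in cKO_PD and 76.7 CPM in cHet_PD, against 334 CPM in cKO_control and 336 CPM in cHet_control, and endothelium showed the same direction at 83.8 CPM and 59.7 CPM, against 293 CPM and 271 CPM. Tlr4 was 8.50 CPM, 5.80 CPM, 8.92 CPM and 7.32 CPM. In neutrophils, all 6 measured genes of the antimicrobial list were called higher in cKO_PD over cHet_PD, where 16.1% of all genes were and where immature clusters made up 462 cells in cKO_PD and 16 in cHet_PD. Among them were the granule genes Camp (4192 CPM and 282 CPM) and Ngp (35868 CPM and 3613 CPM), which immature neutrophils express. Il1a, Il1b and Il1rn were called lower there, Il1rn at 1732 CPM in cKO_PD and 8254 CPM in cHet_PD.

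Across 77 profiles (1 class in 1 library each) the gene whose log level was most like that of S100a8 among 6337 candidates was S100a9 (Pearson r = 0.971), followed by Il1rn (0.811) and Cdk5r1 (0.777). Lcn2 was most like Retnlg (0.817), Slpi most like Il1rn (0.832), Saa3 most like Vcan (0.686), Hmgb1 most like Tmpo (0.906) and Anxa1 most like Tmprss11g (0.729). The profiles share libraries, depth and free RNA, so these are descriptions. In the order of classes by S100a8, the top 4 of cKO_PD were immature neutrophils, mature neutrophils, the BC037156 and Odam cluster and phagocytes, with phagocytes not apart from the Gjb2 and Sprr1b cluster next in line. In cHet_PD the 3 neutrophil groups came first and the BC037156 and Odam cluster, cornifying cells and the Gjb2 and Sprr1b cluster followed, each apart from the next beyond counting error. In both controls the BC037156 and Odam cluster came first of the classes with at least 40 cells.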

How the data were processed

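Gingival single cells of 4 libraries (1 per group) were sequenced, and the authors deposited 1 matrix of raw UMI counts per library. Per the labels' protocols tissue was digested with collagenase and dispase and cells were captured on a BD Rhapsody system, although a label also names 10x Genomics. Per the submitters' processing notes fastp and STARsolo 2.7.10a were used with mm10; strand and multi-mapping settings are not given in the sources used here. The deposited counts had different floors, 500 UMIs per barcode in the PD libraries and 1501 in the controls, so 24.8% of cKO_PD and 33.7% of cHet_PD cells lay under the lowest control total. That moves shares of cells with a UMI more than CPM.

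Barcodes with at least 200 genes and at most 20% mitochondrial UMIs were kept (31150 of 33854). The cap removed 1.12%, 1.1%, 17.8% and 9.72% of cKO_PD, cHet_PD, cKO_control and cHet_control barcodes. Cells were clustered with scanpy 1.11.5 and leidenalg 0.10.2 (2000 variable genes, 30 components, resolution 1) without the members and Itga9. Clusters were called by marker lists ("-like") or by their leading genes, and the naming rule and the grouping into classes were set after the data were seen. An immune cluster of 285 cells led by Krt1 and Krt10 was left out of the classes. A doublet caller marked 3 of 31150 cells, so it did not work and no doublets were removed. Raw counts were summed per class and library. Ratios carry exact conditional binomial 95% intervals, and the scripts were tested on simulated data. Intervals and floors (3 counts) cover counting error only.

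The members and gene lists were chosen with earlier results of these data known. The genes named are the members, the list genes called by size and the 3 genes most like each member, of which only some are printed. Alternatives (11 planned, 2 added later) changed scaling, filters, resolution, the amount added, doublets and background.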

Additional observations from a re-analysis of the deposited data

Results flagged for a closer look

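In all, 4 pairs of differences had opposite directions in the matched comparisons, each with 1 library per group, so the difference between them was not tested. Slpi in the Krt4 and Krt13 cluster had a log2 fold of PD over control of -1.73 in cKO and 1.01 in cHet. The same gene in the same cluster had a log2 fold of cKO over cHet of -1.49 in PD and 1.25 in control. Slpi UMIs lay in 21 of 165 cKO_PD cells, 71 of 222 cHet_PD cells, 83 of 292 cKO_control cells and 68 of 449 cHet_control cells of that cluster, so these values do not rest on 1 cell.

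S100a8 in cornifying keratinocyte-like cells had a log2 fold of cKO over cHet of -2.57 in PD and 1.36 in control, and 127 of the 140 cHet_control UMIs lay in 1 cell. S100a9 in endothelium had a log2 fold of cKO over cHet of 1.04 in PD and -3.30 in control, and without cells that held a neutrophil tracer its level was 78.4 CPM in cKO_PD, 76.7 CPM in cHet_PD, 0 CPM in cKO_control and 3.56 CPM in cHet_control.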

How the results depend on the processing

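No paired analysis was possible because replicates are lacking, with 1 library in each group. Of 70 member differences called by size, 68 were called the same way after TMM scaling and 52 after thinning to 1000 UMIs per cell. With no count minimum or with 1 CPM added 70 were, and with cells weighted equally or without the top 5% of doublet scores 65 were. The doublet scores came from the caller that did not work, so that setting does not show how doublets bear on the calls. In keratinocytes of all layers the same 4 and 5 members were called in PD over control in every setting but endothelial subtraction, where Lcn2 was lost in both pairs and Hmgb1 was called in the cKO pair. In keratinocytes of all layers, 1 member was called higher in cKO_PD over cHet_PD, in place of 0, after thinning and with cells weighted equally (Lcn2 in both) and after subtracting the endothelial CPM (Hmgb1). In cKO_control over cHet_control the count of 1 called higher became 2 after thinning, with a mitochondrial cap of 10% and with cells weighted equally, 3 after endothelial subtraction and 0 without cells holding a neutrophil tracer.

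Endothelial subtraction, which set levels below endothelium to 0, kept 43 of 60 calls and reversed 8 values. In cKO_PD over cKO_control the log2 fold became -0.08 for S100a8 and -0.34 for S100a9 in basal cells, -0.89 and -0.31 in spinous cells, -1.45 and -0.52 in cornifying cells, and -0.35 for S100a8 in cycling cells. S100a9 in cornifying cells of cKO_control over cHet_control became 0.52, with its cHet_control level set to 0. Of the cKO_PD levels behind these folds only S100a8 in cornifying cells stayed above 0. With 1 side set to 0 the sign of the other folds was limited in advance, so they do not show a reversed difference. Endothelial S100a8 in cKO_control over cHet_control became 0.06 without the top 5% of doublet scores and 0.18 without tracer cells. The endothelial level of cKO_PD taken off was 393 CPM for S100a8, to which 1 cell gave 187 of 446 UMIs; without tracer cells basal S100a8 and S100a9, spinous S100a9 and cycling S100a8 of cKO_PD still lay below endothelium. The settings without tracer cells and with 6 shared clusters were chosen after seeing the data. Few UMIs limit Saa3.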
